A study of Arabidopsis thaliana with 9 samples.

Results

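The 10 calcineurin B-like (CBL) calcium sensor genes and the 26 CBL-interacting protein kinase (CIPK) genes of Arabidopsis thaliana were followed in seedlings given nitrate. The 36 members were chosen by gene identifier, CBL1 to CBL10 and CIPK1 to CIPK26, out of 32678 genes in the count tables. Every member had a row, and 33 passed the filter on low counts and were tested. RNA sequencing covered 3 groups of 3 libraries, all from whole 7-day-old seedlings with about 10 seedlings pooled per library. The icpk seedlings with 10 mM KNO3 are mutant for 3 kinases of the calcium-dependent CPK type (cpk10, cpk30 and cpk32) and express CPK10(M141G)-DHA, a CPK10 whose activity the inhibitor 3MBiP can block. The other groups were wild type with 10 mM KNO3 and wild type with 10 mM KCl, which brings the same potassium without nitrate. All seedlings had grown on 2.5 mM ammonium succinate as the only nitrogen source and received the salt for 15 min. The labels describe 10 µM inhibitor given 2 min before the salt and do not say which libraries received it, and they do not give the promoter or the number of lines behind icpk.

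CBL proteins bind calcium through EF hands and then dock on a short regulatory motif of a CIPK, which frees the kinase domain. The CBL partner also decides on which membrane the pair works, with CBL1 and CBL9 at the plasma membrane and CBL2 and CBL3 at the vacuole. In roots, CIPK23 with CBL1 or CBL9 phosphorylates the nitrate transceptor NPF6.3 and the potassium channel AKT1, CIPK8 is known as a regulator of the early nitrate response, and CBL4 with CIPK24 activates the sodium exchanger SOS1. CPK kinases, the ones mutated in icpk, carry their calcium sensor within the kinase itself and form a separate branch of calcium decoding.

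Libraries held 5987352 to 19564785 counts in genes, of which 7793 to 28390 fell in the 36 members. Wild type KCl replicate 3 stood apart, with the fewest counts and 80.5% of its records multiply aligned, against 23.8% to 58.0% in the others. In icpk, CPK30 and CPK32 stood at 12.3% and 10.4% of their wild type level with KNO3 and CPK10 at 177%, where the transgene and the native CPK10 are counted together. The summed level of 15 photosynthesis markers ranged from 45276 to 67963 CPM in icpk, 30693 to 45069 CPM in wild type with KNO3 and 49068 to 59601 CPM with KCl, where CPM is the count scaled to the effective library size. Of the 15, 4 were called higher and 0 lower in icpk than in wild type, and 0 were called between KNO3 and KCl in wild type, with median log2 differences of 0.60 and -0.56. The 20 root markers summed to 464 to 684 CPM in icpk, 784 to 969 CPM in wild type with KNO3 and 630 to 808 CPM with KCl. The peroxidase gene PER1 had 0 counts in all 9 libraries, and PER2 had 1, 0 and 1 counts in these groups. Whether their reads were set aside as multiply aligned was not tested. Of the 18 tested, 6 were lower in icpk than in wild type and 0 higher (median -0.50), and 2 were higher with KNO3 than with KCl and 0 lower (median 0.29). The markers called in icpk are 26.7% of the photosynthesis list and 33.3% of the root list. Of all tested genes, 11.3% were called higher and 11.4% lower in icpk, and 3.56% higher and 2.39% lower with KNO3. By their medians both lists moved with the groups, and their part in the member results below was not tested. In these whole seedlings, fewer cells of a type and less RNA per cell cannot be told apart.

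The family spans a wide range of levels. Per kilobase of coding length, CIPK6 was highest, averaging 317 CPM per kb in icpk, 254 in wild type with KNO3 and 357 with KCl, and it made up 24.9% to 38.4% of the summed CIPK level in CPM per library. CIPK15, CIPK7, CIPK1 and CBL3 followed, at 91.0, 82.5, 70.2 and 62.8 CPM per kb over the 9 libraries. By this measure CBL3 was the highest of the sensors over the 9 libraries, ahead of CBL1 at 56.2 CPM per kb. In wild type with KCl, CBL1 was ahead, at 75.0 against 65.5 CPM per kb. CIPK23 averaged 62.7 CPM per kb. The genes of the salt pathway were lower, CBL4 at 11.8 and CIPK24 at 5.04 CPM per kb. Coding length leaves out untranslated exon bases, from which reads can also be counted, and their share differs between genes. CBL1 has 759 coding bases beside 2027 exon bases, and CIPK11 has 1308 beside 1856. The order between genes close in level, and of sensors against kinases, therefore depends on this divisor. Summed over the family, the 26 kinases stood at 1276 ± 24.5 CPM in icpk, 1296 ± 24.7 CPM in wild type with KNO3 and 1253 ± 23.2 CPM with KCl (SD, n = 3 each). The 10 sensors stood at 131 ± 9.28, 152 ± 4.14 and 164 ± 13.3 CPM in the same groups. The kinase total thus moved by little while single kinases went in different directions.

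**Figure D1:**
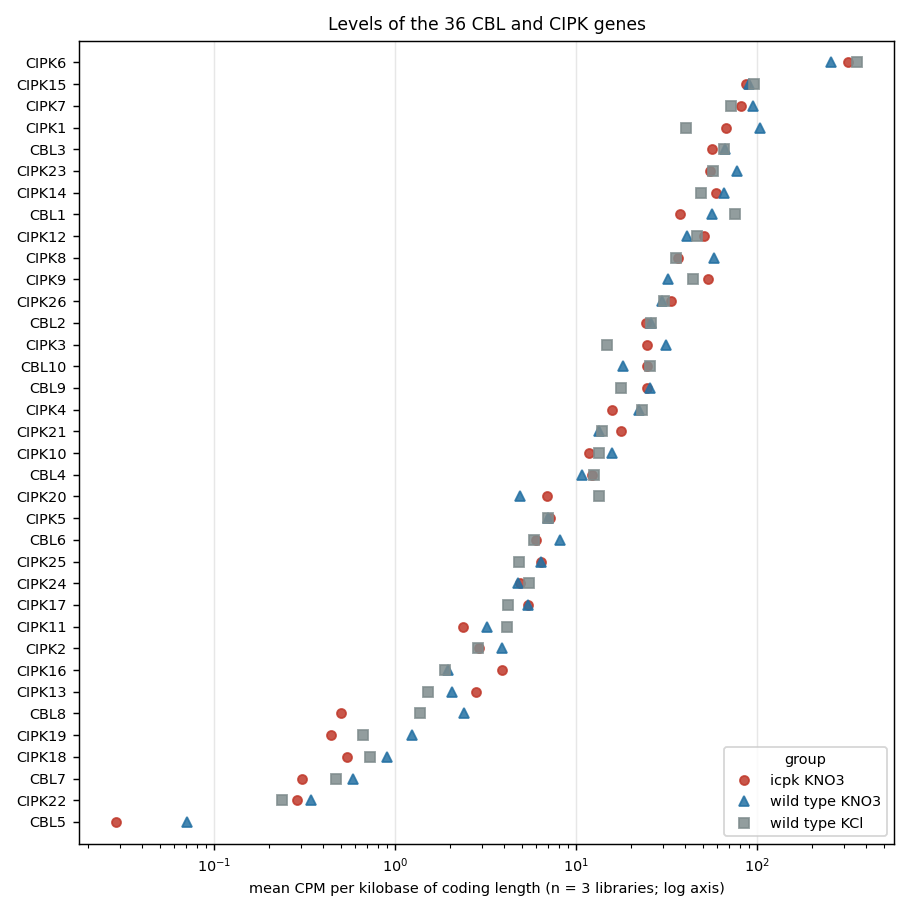
Mean CPM per kilobase of coding length (log axis, n = 3 libraries per point) for the 36 genes, ordered by their mean over the 9 libraries, with icpk KNO3 as circles, wild type KNO3 as triangles and wild type KCl as squares. CIPK6 tops the list and CBL5, which had 0 counts with KCl and so has no square, is at the bottom.

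CBL5, CBL7 and CIPK22 did not pass the filter. CBL5 had 1 count over the icpk libraries, 2 over wild type with KNO3 and 0 with KCl, where a count of 0 allows up to 3. CBL7 had 8, 19 and 13 counts and CIPK22 16, 21 and 12 in the same order of groups. These genes were not tested.

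After 15 min of nitrate, 5 members were higher and 3 lower in wild type. CBL9 (AT5G47100), CIPK1, CIPK3, CIPK8 and CIPK23 were higher with KNO3 than with KCl, and CBL10, CIPK6 and CIPK20 were lower (edgeR's quasi-likelihood F-test, adjusted p below 0.05 by Benjamini-Hochberg over all genes). That is 15.2% and 9.09% of the 33 members tested, against 3.56% of all 20288 tested genes called higher and 2.39% lower, 5.95% in either direction. Each share of the members rests on few genes. The median log2 change was 0.11 for the members and -0.02 for all tested genes. The authors' deposited table for this comparison also called 5 members higher and 3 lower, and all 8 were shared.

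In icpk with KNO3, 4 members were higher than in wild type with KNO3 and 7 lower. The higher ones were CBL10, CIPK9, CIPK12 and CIPK16, and the lower ones CBL1, CBL8, CIPK1, CIPK4, CIPK8, CIPK19 and CIPK23. The background in this comparison was high, with 11.3% of all tested genes called higher and 11.4% lower, 22.7% in either direction. The 4 and 7 members are 12.1% and 21.2% of the 33 tested, so the share higher is near the background. CBL8, among the 7, passed the filter on low counts only through the wild type libraries with KNO3, where it was high. The share lower therefore holds a gene whose difference is given only as a description. Members had a median log2 difference of -0.10 and all genes of 0.01. With the replicate number as a block, which the pairing of these libraries allows, 6 members were higher and 7 lower. Here CIPK6 (adjusted p = 0.0477) and CIPK21 (0.0455) joined the higher and CIPK3 (0.0466) the lower, while CBL1 (0.0586) was not called. The background shares above are from the fit without the block. Over all genes, the 6 alternatives other than the leave-out fits, this block among them, called 1708 to 2402 higher and 2038 to 2465 lower. The authors' deposited table called 4 higher and 8 lower and shared 3 and 7 of them. CIPK6 (log2 0.30, adjusted p = 0.0160) and CIPK10 (-0.41, 0.0328) were called in the authors' deposited table alone, and CIPK12 (0.29, 0.0986) was not called in it.

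Both comparisons use the wild type libraries with KNO3, so that a chance deviation of those libraries enters each with opposite sign. CIPK1, CIPK8, CIPK23 and CBL10 were called in both, and the share of all tested genes called in both is not given here. Values of each comparison are therefore given side by side, and no overlap between them is read as a result.

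**Figure D2:**
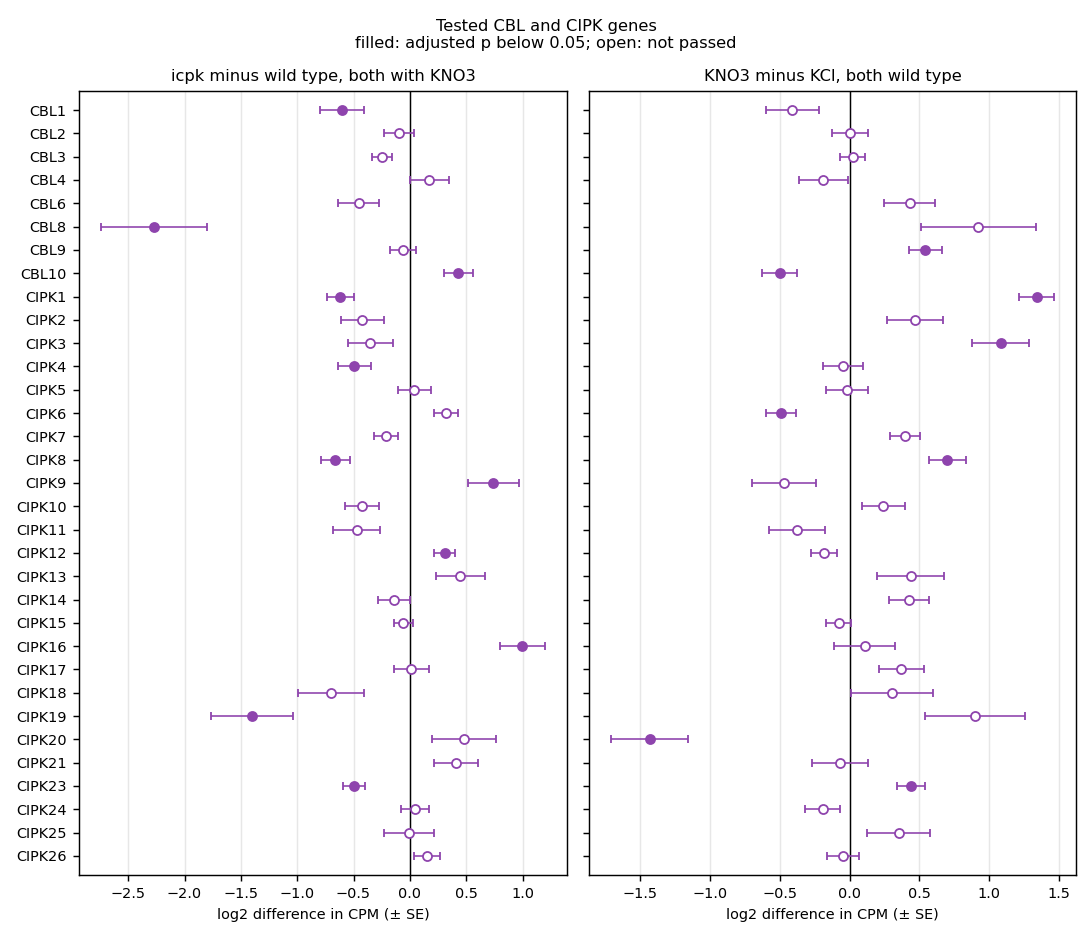
Log2 difference ± SE of the 33 tested members in icpk against wild type with KNO3 (left) and with KNO3 against KCl in wild type (right), on separate horizontal scales. Filled points passed an adjusted p of 0.05; With KNO3, CIPK1 lies farthest to the right, at 1.34, and CIPK20 farthest to the left, at -1.43.

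CIPK1 (AT3G17510), a kinase that interacts with CBL1 and CBL9 and acts in osmotic stress and abscisic acid responses, had the smallest p of the members with nitrate. Its level was 99.3, 91.2 and 78.4 CPM in icpk, 144, 152 and 116 CPM in wild type with KNO3 and 53.1, 57.0 and 52.4 CPM with KCl. The 3 groups did not overlap, with icpk between the wild type groups. CIPK1 rose by 1.34 ± 0.13 (log2, SE) with KNO3 (adjusted p = 8.22e-05) and stood 0.62 ± 0.12 lower in icpk than in wild type with KNO3 (log2 difference -0.62, adjusted p = 0.00699). Against wild type with KCl, icpk was still higher, by 0.72 ± 0.12 (adjusted p = 0.00634). These calls held under each alternative tried, leaving out any single library included.

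CIPK8 (AT4G24400), the nitrate-response kinase, had 54.4, 51.7 and 40.4 CPM in icpk, 84.0, 82.2 and 65.2 CPM in wild type with KNO3 and 45.1, 49.7 and 47.8 CPM with KCl. All wild type libraries with KNO3 lay above all those of icpk and of wild type with KCl, which overlapped each other. The log2 change with KNO3 was 0.70 ± 0.13 (adjusted p = 0.0103) and the icpk difference was -0.66 ± 0.13 (adjusted p = 0.00658). Icpk with KNO3 did not pass against wild type with KCl (0.04 ± 0.13, adjusted p = 0.904). The call with KNO3 was lost without wild type KCl replicate 1 (adjusted p = 0.0514) or wild type KNO3 replicate 1 (0.0546), and the icpk call held under each alternative.

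CIPK23 (AT1G30270), which phosphorylates NPF6.3 and AKT1, had 78.6, 87.5 and 70.6 CPM in icpk, 112, 106 and 116 CPM in wild type with KNO3 and 81.6, 77.3 and 87.8 CPM with KCl. As with CIPK8, the wild type libraries with KNO3 were the high ones and the other groups overlapped. The log2 change with KNO3 was 0.44 ± 0.10 (adjusted p = 0.0265), the icpk difference was -0.50 ± 0.10 (adjusted p = 0.00695), and icpk against wild type with KCl gave -0.06 ± 0.10 (adjusted p = 0.793). The KNO3 call was lost without wild type KCl replicate 1 (adjusted p = 0.0897) or 2 (0.12) and without wild type KNO3 replicate 1 (0.0952) or 3 (0.0892). In those fits the log2 change stayed between 0.40 and 0.44. Without replicate 3 of every group, both the KNO3 call (0.0621) and the icpk call (0.0586) were lost.

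The sequences just upstream of these 3 genes are shown because CIPK1, CIPK8 and CIPK23 were the members called higher with KNO3 and lower in icpk. The wild type libraries with KNO3, shared by both comparisons, favour this selection, which serves only to choose the sequences printed. Each is 250 bases ending at the base before the annotated gene start, read 5′ to 3′ on the gene's strand from the RefSeq genome and annotation of assembly TAIR10.1. They lie at chr3:5993002-5993251 (minus strand) for CIPK1, chr4:12616729-12616978 (plus strand) for CIPK8 and chr1:10654550-10654799 (plus strand) for CIPK23, and no annotated exon overlaps them. Capitals mark TGACG, or CGTCA where it is on the other strand, the core bound by TGA-type bZIP factors.
CIPK1: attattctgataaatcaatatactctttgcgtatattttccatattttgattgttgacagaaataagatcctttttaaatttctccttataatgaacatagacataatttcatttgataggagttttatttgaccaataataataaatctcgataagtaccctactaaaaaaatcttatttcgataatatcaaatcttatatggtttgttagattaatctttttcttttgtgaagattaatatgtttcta
CIPK8: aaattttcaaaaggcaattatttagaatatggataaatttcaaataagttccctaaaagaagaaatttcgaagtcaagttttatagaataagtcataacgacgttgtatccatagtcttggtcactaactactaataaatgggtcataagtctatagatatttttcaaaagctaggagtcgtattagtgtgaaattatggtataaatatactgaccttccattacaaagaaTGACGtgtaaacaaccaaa
CIPK23: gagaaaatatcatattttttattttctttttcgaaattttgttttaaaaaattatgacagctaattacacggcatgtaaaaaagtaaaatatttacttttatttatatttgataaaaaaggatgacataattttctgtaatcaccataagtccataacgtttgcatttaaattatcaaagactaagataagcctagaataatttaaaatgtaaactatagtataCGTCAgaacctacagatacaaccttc

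TGACG, searched on both strands, began 19 bases before the CIPK8 start and 26 bases before the CIPK23 start, and was not in the CIPK1 window. It was in 18.6% of 27443 upstream windows of protein-coding genes and in 6 of the 36 members, CBL7, CBL10, CIPK4, CIPK6, CIPK8 and CIPK23. The inner part of the nitrate-responsive element known from nitrite reductase genes, searched by its letters and spacing on both strands, was in 1.22% of windows and in 0 of 36 members. GAATC, bound by HRS1 and HHO repressors, was in 38.8% of windows and in 6 members, and the G box CACGTG was in 6.49% of windows and in 4 members, neither in the 3 sequences shown. A match is a run of letters in this window and says nothing of binding.

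CIPK3 (AT2G26980), a kinase of abscisic acid and cold responses, rose with nitrate as well. It had 38.3, 39.4 and 22.7 CPM in icpk, 46.7, 47.3 and 33.9 CPM in wild type with KNO3 and 20.7, 21.1 and 18.1 CPM with KCl. Both groups with KNO3 lay above all libraries with KCl and overlapped each other. The log2 change with KNO3 was 1.08 ± 0.20 (adjusted p = 0.0111, and 0.0528 without wild type KNO3 replicate 1). The icpk difference of -0.35 ± 0.20 did not pass (adjusted p = 0.228), though it did with the replicate block (0.0466). Against wild type with KCl, icpk differed by 0.73 ± 0.21 (adjusted p = 0.0599), which was called with no filter (0.0420), with DESeq2 (0.0104), without replicate 3 of icpk (0.00719), of wild type KNO3 (0.0452) or of all groups at once (0.00292). Replicate 3 was the lowest library in each of the 3 groups.

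CBL9, the sensor that with CBL1 brings CIPK23 to the plasma membrane, had 16.7, 15.6 and 14.9 CPM in icpk, 18.3, 15.1 and 15.7 CPM in wild type with KNO3 and 11.8, 10.2 and 11.9 CPM with KCl. Libraries with KCl were lowest, and icpk and wild type with KNO3 overlapped. The rise with KNO3 was 0.54 ± 0.12 (log2, adjusted p = 0.0240), icpk differed by -0.06 ± 0.12 (adjusted p = 0.738), and icpk was 0.48 ± 0.12 above wild type with KCl (adjusted p = 0.0380). The KNO3 call was lost without wild type KCl replicate 1 (adjusted p = 0.062) or 2 (0.115) and without wild type KNO3 replicate 1 (0.103) or 3 (0.0503). The call against KCl was lost without any 1 of the icpk replicates (0.102, 0.0851 and 0.0669) or the KCl replicates (0.0611, 0.159 and 0.082), and with the 6 libraries of the comparison (0.0589).

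Members lower with nitrate included the most abundant kinase. CIPK6 (AT4G30960), which acts with CBL4 on the potassium channel AKT2, had 407, 396 and 458 CPM in icpk, 324, 329 and 358 CPM in wild type with KNO3 and 469, 463 and 487 CPM with KCl. The 3 groups did not overlap, with wild type KNO3 lowest. CIPK6 fell by 0.49 ± 0.11 with KNO3 (log2, adjusted p = 0.0228), and the icpk difference of 0.32 ± 0.11 missed the threshold (adjusted p = 0.0520) but passed with DESeq2 (0.00671), limma voom (0.0414) and the replicate block (0.0477). The fall was not called without wild type KCl replicate 1 (0.0693), 2 (0.0693) or 3 (0.0757) or wild type KNO3 replicate 1 (0.107), at log2 changes no smaller than 0.46 in size.

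CIPK20 (AT5G45820), a kinase linked to abscisic acid responses, had 10.5, 7.62 and 9.06 CPM in icpk, 10.3, 4.53 and 4.62 CPM in wild type with KNO3 and 17.9, 16.0 and 18.7 CPM with KCl. All libraries with KCl were above all those with KNO3 of either genotype. The log2 change with KNO3 was -1.43 ± 0.28 (adjusted p = 0.0129), the largest fall among the members, and it was called without any single library but not without replicate 3 of every group (0.13). The icpk difference was 0.48 ± 0.28 and did not pass (adjusted p = 0.247). It was called at 0.0108 without wild type KNO3 replicate 1, at a log2 difference of 0.98. Against wild type with KCl, icpk differed by -0.95 ± 0.27 (adjusted p = 0.0640), which was called with no filter (0.0474), DESeq2 (0.0142), limma voom (0.0366) and the 6 libraries of the comparison (0.00681), and without wild type KNO3 replicate 1 (0.00565) or 2 (0.0440).

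CBL10 (AT4G33000), a sensor that works with CIPK24 in shoots under salt, had 21.7, 16.8 and 18.5 CPM in icpk, 14.6, 14.7 and 12.8 CPM in wild type with KNO3 and 20.2, 21.4 and 17.6 CPM with KCl. Wild type with KNO3 was below both other groups, which overlapped. The log2 change with KNO3 was -0.50 ± 0.13 (adjusted p = 0.0445) and the icpk difference 0.43 ± 0.13 (adjusted p = 0.0330). The first call was lost without KCl replicate 1 (0.13), 2 (0.171) or 3 (0.0518), wild type KNO3 replicate 1 (0.113) or 3 (0.154), or icpk replicate 3 (0.0533). The second was lost without icpk replicate 1 (0.131) or 3 (0.0669) or wild type KNO3 replicate 1 (0.075) or 3 (0.105), and with only the 6 libraries of the comparison (0.061). The photosynthesis markers, lower with KNO3 and higher in icpk by their medians, moved the same way as CBL10 and CIPK6. With KNO3, 0 of these markers were called. Other members had the same signs, CIPK9, CIPK12 and CIPK20 among them. The wild type libraries with KNO3 enter both differences with opposite sign, and the part of the markers in these values was not tested.

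**Figure D3:**
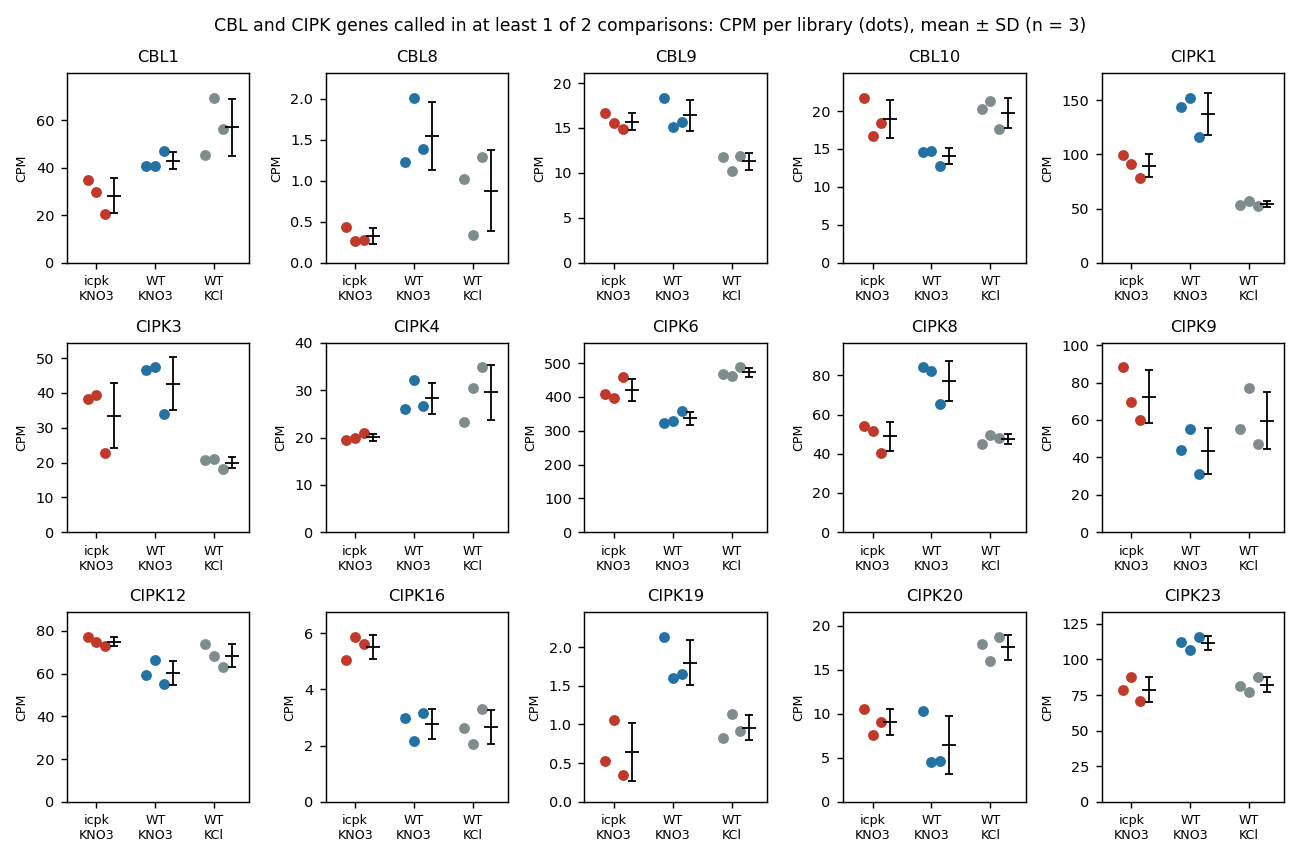
CPM per library (dots) with the mean ± SD (n = 3) for the 15 members called in either comparison, with icpk KNO3 on the left, wild type KNO3 in the middle and wild type KCl on the right of each panel, each axis starting at 0. CIPK8 and CIPK23 show the wild type KNO3 libraries above both other groups, and CIPK16 shows the icpk libraries, at 5.04 to 5.87 CPM, above both wild type groups.

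CIPK16 (AT2G25090), which can activate AKT1 together with CBL1 or CBL9, differed in icpk without a call for nitrate. It had 5.04, 5.87 and 5.60 CPM in icpk, 2.97, 2.18 and 3.17 CPM in wild type with KNO3 and 2.62, 2.07 and 3.30 CPM with KCl. The icpk libraries lay above all 6 wild type libraries. The icpk difference was 1.00 ± 0.20 (log2, adjusted p = 0.00726), called under each alternative, and the change with KNO3 was 0.11 ± 0.22 (adjusted p = 0.840). Against wild type with KCl it was 1.105 ± 0.21 (adjusted p = 0.0105). Leaving out wild type KCl replicate 2 gave 0.0589, and leaving out replicate 3 of every group gave 0.0556.

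CIPK9 (AT1G01140), a kinase of the low-potassium response, had 88.0, 69.6 and 59.9 CPM in icpk, 43.7, 55.2 and 30.9 CPM in wild type with KNO3 and 54.9, 76.9 and 47.1 CPM with KCl. The icpk libraries were above those of wild type with KNO3, and the KCl libraries overlapped both. The icpk difference was 0.74 ± 0.23 (log2, adjusted p = 0.0410) and the change with KNO3 -0.47 ± 0.23 (adjusted p = 0.272). The icpk call was lost without icpk replicate 1 (0.144) or 2 (0.0715), wild type KNO3 replicate 1 (0.107) or 3 (0.12), or wild type KCl replicate 1 (0.0518), which enters through the estimate of spread that all groups share.

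CIPK12 (AT4G18700), which acts with vacuolar CBLs in pollen tubes, had 77.2, 74.8 and 72.9 CPM in icpk, 59.5, 66.5 and 55.3 CPM in wild type with KNO3 and 73.9, 68.0 and 63.2 CPM with KCl. The icpk libraries were above those of wild type with KNO3. Its icpk difference of 0.31 ± 0.09 (adjusted p = 0.0374) was the smallest called among the members, and the change with KNO3 was -0.18 ± 0.09 (adjusted p = 0.303). It was called in 7 of 16 alternatives, and was lost without any of the icpk replicates (0.118, 0.0775 and 0.0658), without wild type KNO3 replicate 1 (0.113) or 3 (0.123) or KCl replicate 2 (0.0526) or 3 (0.0547), and with only the 6 libraries of the comparison (0.0693). Leaving out replicate 3 of every group lost it too (0.167).

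CBL8 and CIPK19, both with few counts, were lower in icpk. CBL8 (AT1G64480), a sensor reported to act beside CBL4 under high salt, had 0.435, 0.264 and 0.277 CPM in icpk, 1.23, 2.01 and 1.38 CPM in wild type with KNO3 and 1.02, 0.334 and 1.28 CPM with KCl. The icpk libraries held 5, 5 and 4 counts, those of wild type given KNO3 19, 35 and 21, and those given KCl 21, 5 and 7. CBL8 passed the filter on low counts, which needs 3 libraries above it, only through the wild type KNO3 libraries, so its difference from that group, included in the 7 lower members above, is given as a description. The log2 difference in icpk was -2.27 ± 0.47 (adjusted p = 0.00819), called without any single library and not without replicate 3 of every group (0.0684), and the change with KNO3 was 0.92 ± 0.41 (adjusted p = 0.230). CIPK19 (AT5G45810), a kinase of pollen tube growth, had 0.521, 1.06 and 0.346 CPM in icpk, 2.13, 1.61 and 1.65 CPM in wild type with KNO3 and 0.826, 1.14 and 0.916 CPM with KCl, or 31, 86 and 39 counts. The icpk libraries of both genes were below those of wild type with KNO3. CIPK19 differed by -1.40 ± 0.36 in icpk (adjusted p = 0.0205) and changed by 0.90 ± 0.36 with KNO3 (adjusted p = 0.177). Its icpk call was lost without wild type KNO3 replicate 1 (0.0781) or icpk replicate 1 (0.0589) or 3 (0.0601), and the log2 difference was -2.05 without icpk replicate 2.

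CIPK4 (AT4G14580) had 19.5, 19.9 and 20.9 CPM in icpk, 26.1, 32.1 and 26.6 CPM in wild type with KNO3 and 23.3, 30.5 and 34.8 CPM with KCl. The icpk libraries lay close together and below all 6 wild type libraries. The icpk difference was -0.49 ± 0.14 (log2, adjusted p = 0.0327) and the change with KNO3 -0.05 ± 0.14 (adjusted p = 0.902). Against wild type with KCl, icpk differed by -0.54 ± 0.15 (adjusted p = 0.0524). That difference was called with no filter (0.0453), with DESeq2 (0.0246) and without KCl replicate 1 (0.0103) or wild type KNO3 replicate 2 (0.0456). The icpk call was lost without any 1 of the icpk replicates (0.0767, 0.0775 and 0.0611) or of the wild type KNO3 replicates (0.0594, 0.0967 and 0.0542).

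CBL1 (AT4G17615), the stress-related plasma membrane sensor, averaged 28.2 ± 7.19 CPM in icpk, 42.8 ± 3.60 CPM in wild type with KNO3 and 56.9 ± 12.0 CPM with KCl (SD, n = 3 each). Its icpk difference was -0.60 ± 0.19 (log2, adjusted p = 0.0460). That call was lost with the replicate block (0.0586), without icpk replicate 2 (0.0818) or 3 (0.114), without any of the wild type KNO3 replicates (0.0934, 0.0638 and 0.126) and without KCl replicate 3 (0.0602). The log2 difference was -0.36 without replicate 3 of every group (0.290). The change with KNO3 was -0.41 ± 0.19 (adjusted p = 0.245), and icpk stood 1.01 ± 0.19 below wild type with KCl (log2 difference -1.01, adjusted p = 0.0110, and 0.0515 without KCl replicate 2).

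The other 18 tested members were called in neither comparison in the main fit, which has no replicate block. Among sensors these were CBL2 and CBL3 of the vacuole, CBL4 and CBL6. CBL2 changed by 0.00 ± 0.13 with KNO3 and by -0.10 ± 0.13 in icpk, and CBL3 by 0.02 ± 0.09 and -0.25 ± 0.09 (log2). CBL3 was called lower in icpk without icpk replicate 3 (adjusted p = 0.0380), and so was CIPK10 without icpk replicate 1 (0.0395), and CIPK11 without icpk replicate 1 (0.0320). CIPK13 was called higher in icpk without wild type KNO3 replicate 3 (0.0391), and CIPK21 with the replicate block (0.0455). CIPK24, the kinase of the salt pathway, had 6.56 ± 0.60 CPM in icpk, 6.38 ± 0.05 CPM in wild type with KNO3 and 7.34 ± 0.32 CPM with KCl (SD, n = 3 each) and did not pass (adjusted p = 0.828 and 0.430).

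CIPK7 came closest to a call with nitrate, at 105 ± 13.1 CPM in icpk, 122 ± 6.42 CPM in wild type with KNO3 and 92.4 ± 5.55 CPM with KCl (log2 change 0.40 ± 0.11, adjusted p = 0.0552). It was called with DESeq2 (0.0128), with the 6 libraries of the comparison (0.0339) and without icpk replicate 2 (0.0375) or 3 (0.0426). CIPK14 was called with KNO3 only without wild type KNO3 replicate 2 (0.0359). CIPK15, which acts on the ammonium transporter AMT1.1, was among the steadiest in level, with 106 to 114 CPM in icpk, 111 to 122 CPM in wild type with KNO3 and 112 to 127 CPM with KCl. Its log2 differences of -0.08 ± 0.09 and -0.06 ± 0.09 did not pass. CIPK26, a kinase that acts on the NADPH oxidase RBOHF, differed by -0.05 ± 0.11 with KNO3 and 0.15 ± 0.11 in icpk.

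Against wild type with KCl, icpk with KNO3 had 4 members higher and 2 lower, with 3.15% of all tested genes called higher and 3.84% lower, 6.99% in either direction. Genotype and salt both differ here. The higher ones were CBL9, CIPK1, CIPK13 and CIPK16, and the lower ones CBL1 and CIPK11. CIPK13 averaged 4.22 ± 0.40 CPM in icpk, 3.11 ± 0.97 CPM in wild type with KNO3 and 2.29 ± 0.25 CPM with KCl (0.89 ± 0.24 against KCl, adjusted p = 0.0485). CIPK11, which inhibits the proton pump AHA2, averaged 3.08 ± 0.87, 4.21 ± 0.29 and 5.45 ± 0.79 CPM (-0.85 ± 0.21 against KCl, adjusted p = 0.0369). The CIPK13 call was lost without any 1 library of icpk (0.0945, 0.129 and 0.0812) or KCl (0.0802, 0.187 and 0.112) or without wild type KNO3 replicate 1 (0.0602), and with limma voom (0.0507). The CIPK11 call was lost without icpk replicate 2 (0.117) or 3 (0.118), KCl replicate 2 (0.164) or 3 (0.0815) or wild type KNO3 replicate 1 (0.063), and with the 6 libraries of the comparison (0.0694). In the reference annotation 1823 of the 1856 exon bases of CIPK11 are overlapped by a gene on the opposite strand that has its own row. Its counts are therefore uncertain in libraries without strand. For CIPK13, an opposite-strand gene without a row overlaps 665 of the 1722 exon bases, and another with its own row overlaps 83. CIPK13 counts are uncertain in the same way.

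Genes that act around the family were read from a list of 25 upstream kinases, phosphatases and targets, of which 22 were tested. With KNO3 against KCl in wild type 4 were higher and 1 lower (median log2 0.17), and in icpk against wild type 2 were higher and 2 lower (median -0.12). The shares of all genes called, given above, are the background for these counts. The phosphatase PP2CA, of the clade that docks on and counteracts CIPKs, had 95.8, 89.2 and 101 CPM in icpk, 99.6, 113 and 105 CPM in wild type with KNO3 and 30.5, 43.2 and 43.6 CPM with KCl. Both KNO3 groups were above all KCl libraries and overlapped each other. PP2CA rose by 1.45 ± 0.13 with KNO3 (log2, adjusted p = 7.99e-05), and its icpk difference of -0.15 ± 0.13 did not pass (adjusted p = 0.434).

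CAX1, a vacuolar calcium exchanger that CIPK24 can activate, was also higher in both KNO3 groups. It had 195, 187 and 156 CPM in icpk, 202, 210.4 and 169.5 CPM in wild type with KNO3 and 92.6, 97.4 and 104 CPM with KCl, a log2 rise of 0.99 ± 0.12 with KNO3 (adjusted p = 0.000607) beside an icpk difference of -0.11 ± 0.12 (adjusted p = 0.529). The phosphatase ABI2 rose by 0.64 ± 0.16 with KNO3 (adjusted p = 0.0445), and this call was lost without any 1 of the KCl replicates (0.158, 0.0975 and 0.0917) or without wild type KNO3 replicate 1 (0.146) or 3 (0.151).

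AKT1, the inward potassium channel and target of CIPK23, had 76.4, 82.0 and 67.7 CPM in icpk, 99.5, 107 and 91.5 CPM in wild type with KNO3 and 67.9, 71.2 and 75.0 CPM with KCl. Its wild type libraries with KNO3 lay above the other groups, which overlapped, as for CIPK23. Its log2 change with KNO3 was 0.48 ± 0.10 (adjusted p = 0.0182) and the icpk difference -0.40 ± 0.10 (adjusted p = 0.0175). The first was lost without KCl replicate 1 (0.079) or 2 (0.0714) or wild type KNO3 replicate 1 (0.0692), and the second without wild type KNO3 replicate 1 (0.057) or icpk replicate 3 (0.0503). Root markers, lower in icpk and higher with KNO3 by their medians, moved the same way as AKT1, CIPK1, CIPK8 and CIPK23. The shared wild type libraries with KNO3 enter both differences here too, and the part of the markers in these values was not tested.

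AKT2, the phloem potassium channel that CIPK6 and CBL4 bring to the plasma membrane, averaged 11.4 ± 2.22 CPM in icpk, 5.30 ± 1.72 CPM in wild type with KNO3 and 7.46 ± 2.39 CPM with KCl (SD, n = 3 each). It was higher in icpk by 1.096 ± 0.26 (log2, adjusted p = 0.0154), a call lost without wild type KNO3 replicate 1 (0.0656) or 3 (0.0541) or icpk replicate 1 (0.0537). AMT1.1, an ammonium transporter inhibited by CIPK15 and CIPK23, was lower in icpk by 0.62 ± 0.18 (log2 difference -0.62, adjusted p = 0.0333), lost without wild type KNO3 replicate 1 (0.109) or 3 (0.112) or icpk replicate 2 (0.0653) or 3 (0.0964) and with the 6 libraries of the comparison (0.0528). It was called higher with KNO3 only without wild type KNO3 replicate 2 (0.0215). A gene on the opposite strand overlaps 1709 of its 1736 exon bases, so its counts are uncertain.

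The iron transporter IRT1, which CIPK23 phosphorylates, had 19.7, 28.3 and 11.4 CPM in icpk, 0.0646, 0.861 and 0.132 CPM in wild type with KNO3 and 2.19, 2.67 and 2.93 CPM with KCl. The icpk libraries were above all others by a wide margin, and 18 counts in all were found in wild type with KNO3. The icpk difference was 5.71 ± 0.54 (log2, adjusted p = 0.000304) and was 7.55 without wild type KNO3 replicate 2, the highest library of that group. IRT1 was lower with KNO3 by 2.73 ± 0.64 (log2 change -2.73, adjusted p = 0.0317). That call was lost without any 1 of the KCl replicates (0.0741, 0.104 and 0.0703) or wild type KNO3 replicate 1 (0.107) or 3 (0.11) and with limma voom (0.0817), and the log2 change was -4.57 without wild type KNO3 replicate 2. NPF6.3 averaged 658 ± 78.9 CPM in icpk, 714 ± 74.0 CPM in wild type with KNO3 and 547 ± 30.6 CPM with KCl and was called in neither comparison (adjusted p = 0.563 in icpk and 0.127 with KNO3). SOS1, the target of CBL4 and CIPK24, was not called either (-0.32 ± 0.12 in icpk, adjusted p = 0.0836, and 0.19 ± 0.12 with KNO3, adjusted p = 0.408). Of the upstream kinases GRIK1 and GRIK2, which phosphorylate CIPK activation loops, GRIK1 had 18, 19 and 20 counts per group and GRIK2 was listed at 0 in all 9 libraries.

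**Figure D4:**
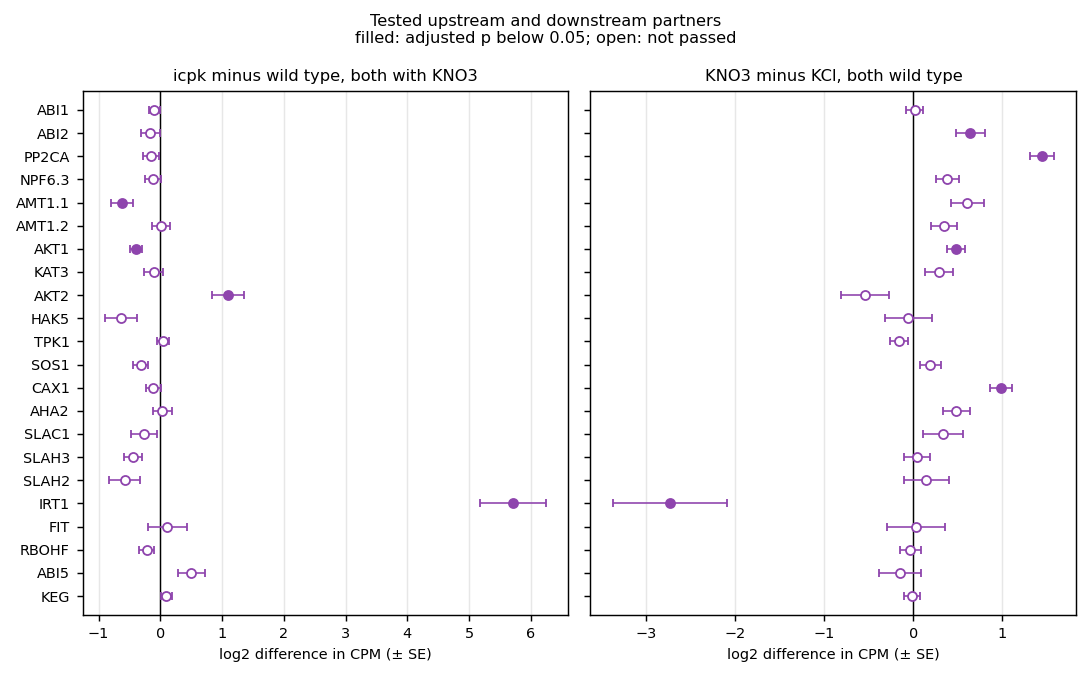
Log2 difference ± SE of the 22 tested partner genes in icpk against wild type with KNO3 (left) and with KNO3 against KCl in wild type (right), on separate horizontal scales, with points filled where the adjusted p was below 0.05. PP2CA and CAX1 are to the right with KNO3 and near 0 in icpk, and IRT1 stands apart at 5.71 in icpk and -2.73 with KNO3.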

How the data were processed

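For each of the 9 libraries the authors deposited raw counts, 32678 gene rows and 5 summary rows that were left out and held 26.7% to 84.3% of all records. The submitters' processing notes name TopHat, HTSeq, DESeq2 and build TAIR10. Their versions, annotation release and strand setting were not given in the sources used here. Per the labels' protocols, libraries came from a TruSeq kit and 50 sequencing cycles. The authors also deposited 2 tables of comparisons which, per the file headers, hold a base mean signal, a log2 fold change and its standard error, a test score, and p-values with adjusted values. Of these, the deposited log2 values and adjusted p-values were read for the members.

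Groups were taken from sample titles. Counts were filtered with filterByExpr at a minimum count of 10, leaving 20288 genes, scaled by TMM and tested with edgeR 4.0.16 (R 4.3.3), quasi-likelihood F-test, 1 model over the 9 libraries with group means. Calls have a Benjamini-Hochberg adjusted p below 0.05 over all genes tested. The biological coefficient of variation was 15.1%. Standard errors are the log2 fold change over the square root of F and are approximate. Alternatives were median-ratio size factors, no filter, DESeq2 1.42.0, limma voom (limma 3.58.1), the 6 libraries of a comparison, the replicate number as a block, each library left out, and replicate 3 of every group left out. The fit was also run on simulated counts drawn independently for each library, a setting without pairing. The outcome of that run is not given, and no value here rests on it. The labels do not state separate cultures within a group, so p-values measure only the spread between these libraries, and that spread may be technical. No pair of libraries in a group agreed within sampling noise.

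The titles number replicates 1 to 3. Libraries of replicate 3 come from a block of sample records apart from that of replicates 1 and 2. The labels give 2 sequencing lanes, and whether replicate 3 was handled apart was not tested. Between icpk and wild type with KNO3, same-numbered libraries deviated together from the group means, with r of 0.18, 0.12 and 0.31. These numbers were therefore taken to pair those libraries, and blocked values are given where a call changed. The block was fitted over all 9 libraries, so it also ties in the KCl libraries, whose numbers were not taken to pair. Main calls are those without the block.

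The members and lists were chosen with earlier results of these data known. The rule for named genes takes every member called in the 2 main comparisons, 14 in full by smallest p and the others briefly, and each called partner. Gene names and sequences came from RefSeq, assembly TAIR10.1, which matched all 36 members. The files name another build, TAIR10, and no coordinate of the authors was used. Of the members, only CIPK21 had exonic windows of 50 bases found elsewhere in the genome (7.13%).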

Additional observations from a re-analysis of the deposited data

How the results depend on the processing

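Of 19 calls of members in the 2 main comparisons, 4 held under all 16 alternatives and 0 changed sign. Those were CIPK1 in both comparisons and CIPK8 and CIPK16 in icpk. Without replicate 3 of every group 13 were lost. With KNO3 these were CBL9 (adjusted p = 0.0773), CBL10 (0.132), CIPK6 (0.0702), CIPK20 (0.13) and CIPK23 (0.0621). In icpk against wild type they were CBL1 (0.290), CBL8 (0.0684), CBL10 (0.153), CIPK4 (0.0739), CIPK9 (0.0924), CIPK12 (0.167), CIPK19 (0.121) and CIPK23 (0.0586). Calls of CBL1 (0.0897), CBL9 (0.131), CIPK11 (0.223), CIPK13 (0.0765) and CIPK16 (0.0556) in icpk against KCl were lost there too. So were the partner calls of ABI2 (0.222) and IRT1 (0.115) with KNO3. In icpk against wild type, the partner calls lost were AMT1.1 (-0.42, 0.226), AKT1 (0.0573) and AKT2 (0.0554). Higher and lower members numbered 5 and 3 with KNO3 against KCl, with 1 to 6 and 0 to 3 when libraries were left out. For icpk against wild type with KNO3 they numbered 4 and 7, with 1 to 4 and 2 to 7 when libraries were left out, and 2 were higher with the 6 libraries of the comparison. Between icpk with KNO3 and wild type KCl they numbered 4 and 2, with 1 to 5 and 0 to 4 when libraries were left out, and 4 were lower with no filter and with DESeq2. Partners higher and lower with KNO3 numbered 4 and 1, with 2 to 5 and 0 to 1 when libraries were left out, and 0 were lower with limma voom. Partners in icpk against wild type numbered 2 and 2 (1 to 2 and 0 to 3 when libraries were left out), and against KCl 3 and 0 (3 to 3 and 0 to 1, and 1 lower with the 6 libraries). Over all genes, counts with KNO3 of 722 higher and 485 lower ran from 473 to 846 and 125 to 1231 when libraries were left out, those in icpk of 2286 and 2313 from 643 to 2348 and 765 to 2209, and those against KCl of 639 and 779 from 282 to 675 and 194 to 960. Lower genes with KNO3 were 788 with DESeq2. The 1231 came without wild type KNO3 replicate 2. Fits that leave out libraries, or use 6, have fewer samples, and the cause of the changes under DESeq2, limma voom and no filter was not tested. With the replicate block, members higher and lower numbered 5 and 3 with KNO3, 6 and 7 in icpk and 4 and 3 against KCl, where CIPK11 (adjusted p = 0.0651) and CIPK13 (0.0732) were lost and CIPK3 (0.00962), CIPK4 (0.0422) and CIPK20 (0.0365) gained. The numbers were not taken to pair the libraries with KNO3 against KCl, where same-numbered libraries correlated at -0.036, 0.16 and 0.30 and not each library correlated best with its own number, nor against KCl in icpk (-0.22, -0.097 and 0.10). The ABI2 call with KNO3 was lost under the block (adjusted p = 0.0672). Median-ratio size factors moved the median of all genes by at most 0.0142 (log2). Depth limits CBL5, CBL7 and CIPK22, which were not tested, and CBL8 and CIPK19, whose icpk values rest on 14 and 31 counts.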
